A study of Astyanax mexicanus with 22 samples.

Results

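The lipoprotein and yolk receptor genes described here are the 9 rows of the gene count table whose symbol is vldlr, lrp8, lrp13, ldlr, lrp1 or lrp2 (capitals ignored, with the lettered copies of ldlr, lrp1 and lrp2 included) and that reached 10 or more counts in at least 2 libraries. They are 9 of 27420 gene rows, and no row with such a symbol was lost to the count rule. All 9 also passed the filter on low counts, which kept 15607 genes for testing. They are vldlr, ldlra, lrp2a, a pair of rows named LRP8 or lrp8, a pair named LRP1 and a pair named LRP1B. Because each pair shares a symbol, its rows are told apart by gene ID. Reads that mapped to several places were listed apart from the genes, at 7.91% to 17.6% of the listed reads of a library. Reads shared between the rows of a pair could have been lost in this way, which was not tested.

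Receptors of the low-density lipoprotein (LDL) receptor family sit in the plasma membrane, bind lipoproteins and other ligands through cysteine-rich ligand-binding repeats, and carry them into the cell in clathrin-coated vesicles. In egg-laying vertebrates the liver releases the yolk precursor vitellogenin into the blood, and growing oocytes take it up through the very low-density lipoprotein receptor, VLDLR. The wider family includes the LDL receptor itself, which clears cholesterol-rich lipoproteins, LRP8, which binds reelin and apolipoprotein E, the large scavenger receptors LRP1 and LRP1B, and LRP2 (megalin), which works with cubilin in absorptive epithelia.

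The libraries were made from total RNA of right-side ovaries of Astyanax mexicanus, a fish with eyed river-dwelling surface forms and blind cave forms such as the Pachón population. All fish were labelled as wild type. The submitters collected them in 2 batches, at ages near 500 and 1200 days after fertilization, and the labels name the batches old and new without saying which age belongs to which. Batch and age therefore cannot be told apart. The groups were starved Pachón of the old batch (4 libraries), control Pachón of the old batch (4), starved Pachón of the new batch (2), control Pachón of the new batch (2), starved surface fish of the old batch (2), control surface fish of the old batch (4), starved surface fish of the new batch (2) and control surface fish of the new batch (2). The length of starvation is not stated in the labels. Nor do they say that each library is a separate fish, so p-values measure the spread between these libraries.

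Gene counts per library ranged from 4860620 to 7513790. Levels are given as CPM (gene counts scaled to a total of 1e+06 a library) corrected by the trimmed mean of M-values (TMM), which compares one gene between libraries but, without transcript lengths, not one gene with another. A gene was called changed when its adjusted p from edgeR was under 0.05. Markers of oocytes were plentiful in every library, with 12 marker genes summing to between 3860 and 11400 CPM. The second new-batch starved surface library stood apart from the rest. Its oocyte marker sum was 11400 CPM, where the next highest library had 6950 CPM, and its TMM factor of 0.833 was the lowest of the 22. It and its only replicate correlated least of all replicate pairs in log2 CPM (0.935). Where leaving it out changed a call on a receptor gene, the value without it is given beside the result. The ovary also holds follicle, stromal, vascular and immune cells, and in bulk RNA fewer cells of a type and less RNA per cell cannot be told apart.

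Starvation left most receptor genes uncalled. In surface fish 1 of the 9 fell and none rose, where 7.79% of all tested genes were called and 5.37% fell. In Pachón none of the 9 was called, and neither was any other tested gene (0%), although 1142 genes had an unadjusted p under 0.05 and DESeq2 called 12 genes. Within batches none of the 9 was called in Pachón either, against 0.00641% of all genes in the old batch and 0% in the new. The difference in starvation response between the morphs was called for none of the 9, against 0.0256% of all genes. Between morphs, 2 of 9 were higher in control Pachón than in control surface fish, where 34.6% of genes were called in either direction and 16.6% were higher. In starved fish 3 of 9 were higher in Pachón, where 36% of genes were called and 18.3% were higher. Both morph counts include LRP1B (ENSAMXG00000040119), which passed the filter on low counts only through Pachón libraries, where it is high. With 9 genes and many calls among all genes, no statement on the family as a whole is drawn from these counts.

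**Figure D1:**
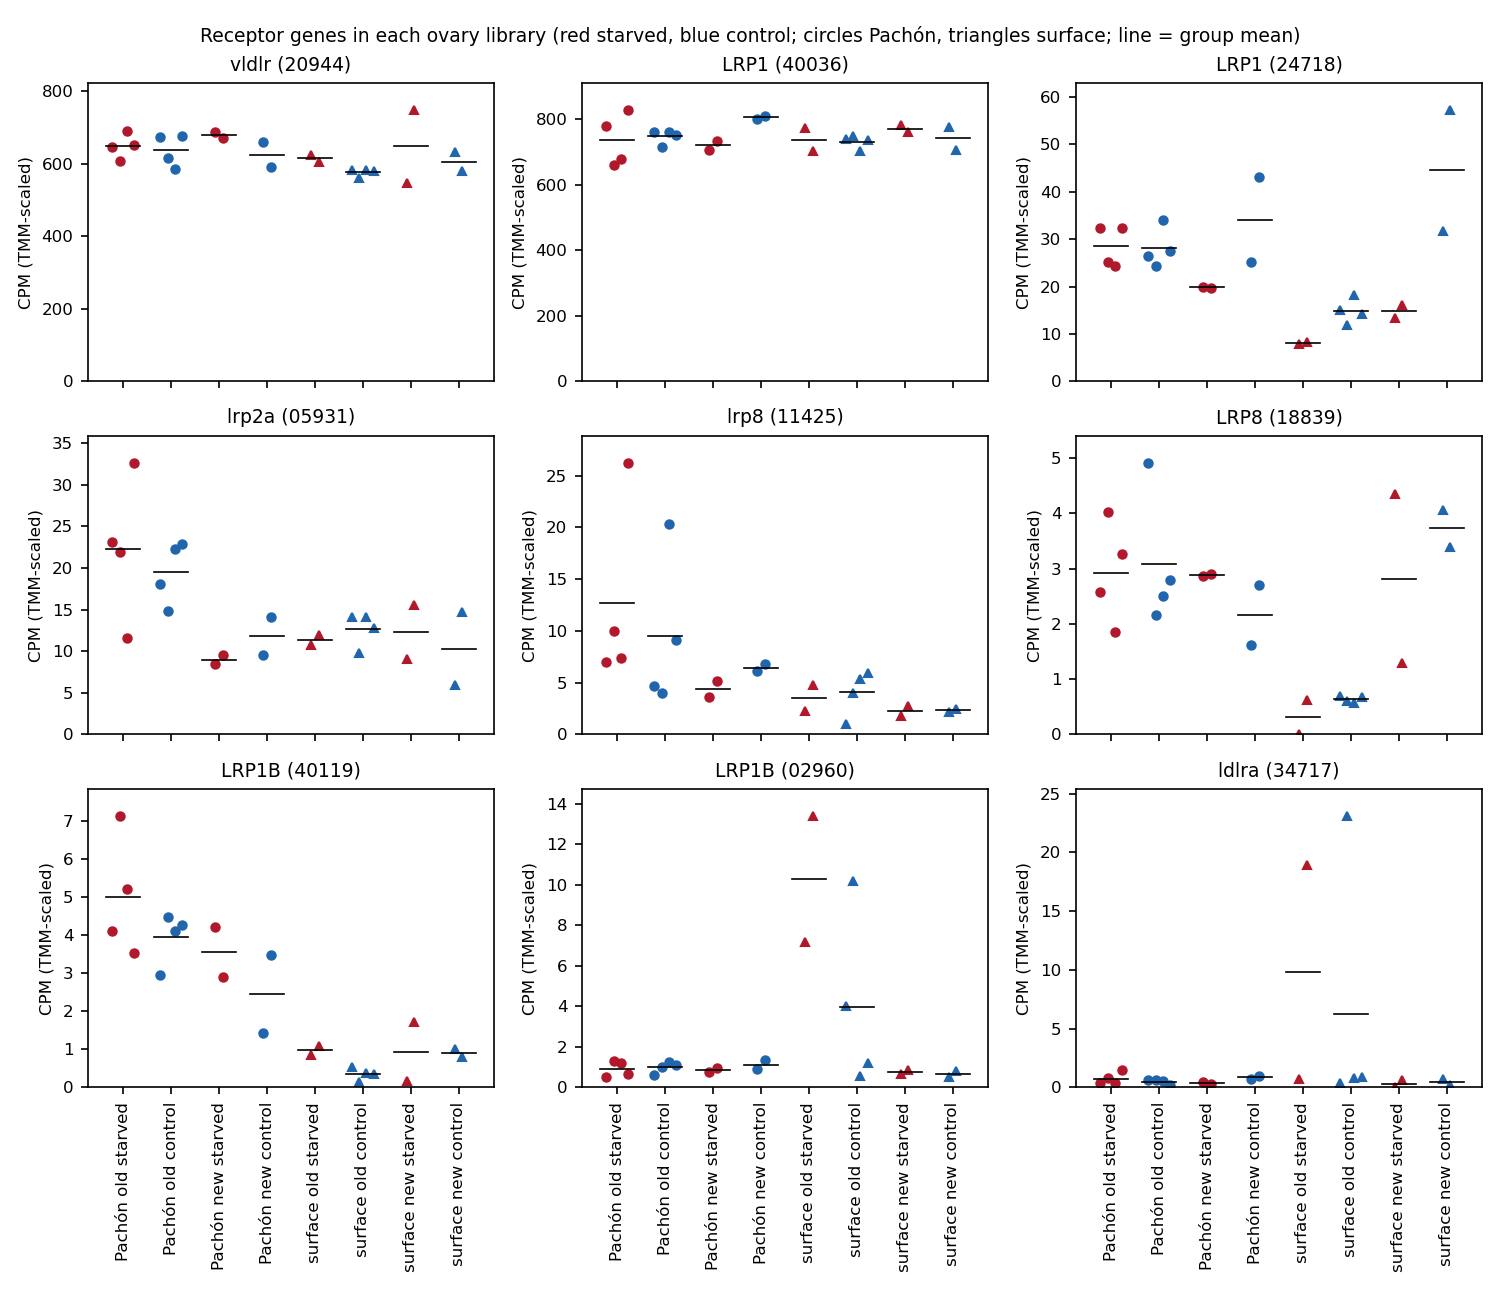
Scaled CPM (linear axes from 0) of each receptor gene in every library, 1 panel a gene with the last digits of its gene ID, red for starved and blue for control fish, circles for Pachón and triangles for surface fish, lines for group means. The vldlr panel stays between 548 and 748 CPM throughout, while the ldlra panel has 2 surface libraries, at 18.9 and 23.1 CPM, far above the other 20.

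The yolk receptor gene vldlr (ENSAMXG00000020944) was steady across ovaries of both morphs, fed or starved. Starved Pachón of the old batch had 645, 607, 690 and 653 CPM, against 675, 617, 587 and 678 CPM in old-batch Pachón controls. In the new batch starved Pachón had 688 and 672 CPM, against 659 and 591 CPM in controls. Starved and control values overlapped in the old batch, and in the new batch both starved libraries lay above both controls. Starved surface fish had 625 and 605 CPM in the old batch, against 582, 562, 583 and 579 CPM in its controls. In the new batch starved surface fish had 548 and 748 CPM, against 633 and 579 CPM in controls. The old-batch surface starved libraries both lay above their controls, whereas those of the new batch lay on either side of theirs.

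The starvation change of vldlr was 0.09 ± 0.08 on the log2 scale in surface fish (SE, 95% interval -0.07 to 0.26, adjusted p = 0.48). In Pachón it was 0.07 ± 0.07 (interval -0.08 to 0.23, adjusted p = 0.836). The responses of the morphs differed by -0.02 ± 0.11, Pachón minus surface. Pachón exceeded surface fish by 0.10 ± 0.07 among controls and by 0.07 ± 0.08 among starved fish, neither of which passed the test. The fitted surface change was 1.07-fold. The surface result rested on the new-batch starved libraries: leaving out the first gave 0.20 (adjusted p = 0.0394), a call, and leaving out the second gave -0.02. Without the second, Pachón exceeded surface fish among starved libraries by 0.21 (adjusted p = 0.0299). Across all 22 libraries the SD of log2 CPM was 0.12, and 1.88% of tested genes varied as little or less. By group mean, starved Pachón of the new batch stood highest at 680 ± 11.1 CPM (SD, n = 2) and control surface fish of the old batch lowest at 576 ± 9.9 CPM (SD, n = 4). Of the 7 steps between neighbours in that order, 2 exceeded the pooled SD of the neighbours.

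The more abundantly counted LRP1 row (ENSAMXG00000040036) varied even less. Starved Pachón had 779, 660, 679 and 828 CPM in the old batch and 707 and 734 CPM in the new, against 762, 716, 760 and 753 CPM and 801 and 811 CPM in their controls. Starved surface fish had 772 and 703 CPM in the old batch and 783 and 760 CPM in the new, against 741, 748, 702 and 737 CPM and 778 and 705 CPM in their controls. Starved and control libraries overlapped in each morph and batch except new-batch Pachón, where both starved values lay below both control values. The log2 SD over all libraries was 0.08, a spread that 0.154% of tested genes matched or fell under. Its starvation change was 0.03 ± 0.07 in surface fish (interval -0.11 to 0.18) and -0.09 ± 0.07 in Pachón (interval -0.23 to 0.04). Between morphs, Pachón minus surface, it was 0.08 ± 0.07 in controls and -0.05 ± 0.07 in starved fish, and none of the 4 changes was called.

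The other LRP1 row (ENSAMXG00000024718) was the receptor gene that fell in starved surface fish. Starved surface fish had 7.92 and 8.37 CPM in the old batch, against 15, 11.9, 18.3 and 14.3 CPM in old-batch controls. In the new batch starved surface fish had 13.4 and 16.1 CPM, against 31.8 and 57.2 CPM in controls. Within each batch every starved surface library lay below every control. Starved Pachón had 32.3, 25.2, 24.4 and 32.4 CPM in the old batch, against 26.5, 24.3, 34.1 and 27.6 CPM in controls, and these overlapped. In the new batch both starved Pachón libraries, at 20 and 19.8 CPM, lay below both controls, at 25.1 and 43.1 CPM.

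Over both batches the surface starvation change of this LRP1 row was -1.23 ± 0.20 (log2, SE, interval -1.64 to -0.82), 0.426 of the control level, with an adjusted p of 0.00223. It was -1.60 ± 0.29 in the new batch (adjusted p = 0.00573), where 4.18% of all genes were called, and -0.86 ± 0.27 in the old batch (adjusted p = 0.163), where 0.147% were. The call over both batches held in all 22 fits that left out 1 library, between -1.41 and -0.99. It was lost with the surface groups fitted alone (-1.23, adjusted p = 0.0575) and with voom sample weights (-1.20, adjusted p = 0.14). The new-batch call was also lost without the second new-batch surface control (-1.12, adjusted p = 0.0808). The Pachón starvation change was -0.37 ± 0.17 (adjusted p = 0.664). The difference between the morphs' responses, 0.86 ± 0.26, had an unadjusted p of 0.00372 and an adjusted p of 0.247, so the fall was not shown to differ between morphs.

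Batch and morph also separated this LRP1 row. Control surface fish averaged 14.9 ± 2.66 CPM in the old batch (SD, n = 4) and 44.5 ± 17.9 CPM in the new batch (SD, n = 2), a log2 change of -1.58 ± 0.23 for old over new (adjusted p = 0.000457). In that comparison 2 of the 9 receptor genes were called, both lower, against 7.36% of all genes called and 4.36% called lower. Control Pachón averaged 28.1 ± 4.21 CPM in the old batch (SD, n = 4) and 34.1 ± 12.7 CPM in the new (SD, n = 2), a change of -0.28 ± 0.24. The difference between morphs in the batch change was 1.31 ± 0.34 (adjusted p = 0.0723). It was called with DESeq2 (1.33, adjusted p = 0.0178) and with voom sample weights (1.33, adjusted p = 0.0494). Among starved fish Pachón exceeded surface fish by 1.12 ± 0.20 (adjusted p = 0.000231), a call held in 22 of 22 fits without 1 library. Among controls the gap was 0.27 ± 0.17 and was not called, but it was 0.51 (adjusted p = 0.0444) without the second new-batch surface control. Within batches the gap was 1.81 ± 0.27 in starved fish of the old batch (adjusted p = 0.000104) and 0.44 ± 0.29 in those of the new (adjusted p = 0.329). Among controls it was 0.92 ± 0.20 in the old batch (adjusted p = 0.00212) and -0.39 ± 0.28 in the new (adjusted p = 0.373).

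Stroma markers, and also smooth muscle and follicle cell markers, moved in several of the comparisons that called this LRP1 row. Of 12 stroma and extracellular matrix genes tested, 10 fell in starved surface fish, with a median log2 change of -2.18 against -0.01 over all genes, of which 5.37% fell. Smooth muscle markers fell in 5 of 9, granulosa markers in 5 of 8 and theca and steroid synthesis markers in 3 of 5. Macrophage markers fell in 3 of 12, endothelial markers in 1 of 8 and hepatocyte markers in 0 of 7, and of 12 oocyte markers 1 rose and 0 fell. With voom sample weights or with the surface groups fitted alone, no gene was called for surface starvation, so none of these calls stood there. Summed over 14 stroma genes, starved surface fish of the new batch had 314 to 421 CPM, against 731 to 759 CPM in controls. In the old batch the sums were 419 to 494 CPM in starved surface fish, against 369 to 580 CPM in controls, and they overlapped. The gene fn1a held most of the counts in these sums, 45583 over all libraries, where the next gene, col1a1a, had 2950. Over the tested stroma genes the median surface starvation change was -2.01 in the old batch and -2.78 in the new, against 0 over all genes in both. None of them was called in the old batch, where 0.147% of all genes were. In the comparison of starved Pachón with starved surface fish 7 of the 12 stroma genes were higher and 1 lower, where 18.3% of all genes were higher. Smooth muscle markers were higher there in 7 of 9 and theca and steroid synthesis markers in 4 of 5, with 0 lower in either. Granulosa markers were higher in 4 of 8 and macrophage markers in 4 of 12, with 1 lower in each. In old over new surface controls 8 of the 12 stroma genes were lower, against 4.36% of all genes. There 3 of 9 smooth muscle, 1 of 8 granulosa and 0 of 5 theca and steroid synthesis markers were lower. The part of these cells in the LRP1 changes was not tested.

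**Figure D2:**
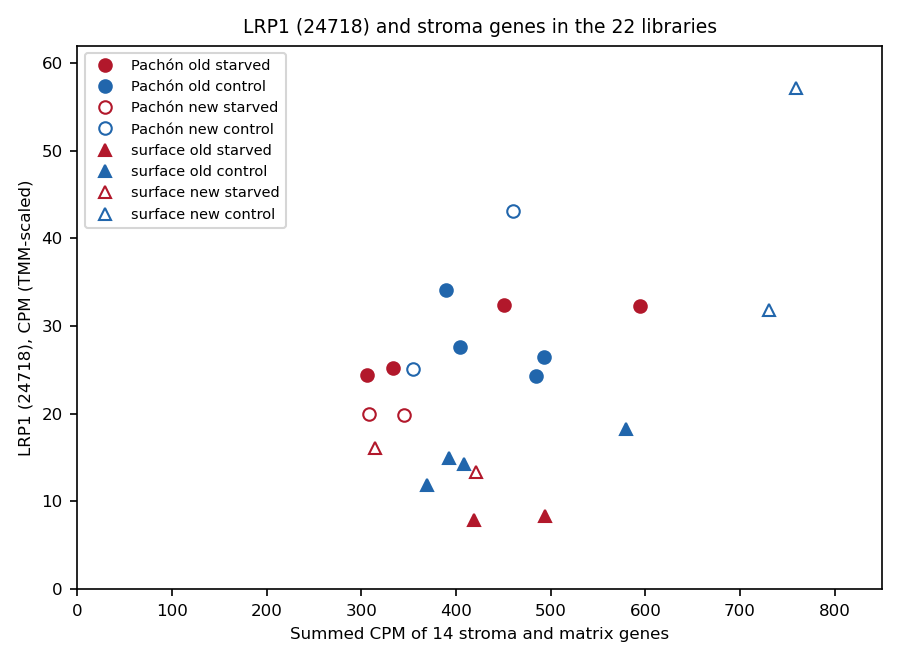
Scaled CPM of the LRP1 row ENSAMXG00000024718 (vertical axis) against the summed scaled CPM of 14 stroma and matrix genes (horizontal axis) in each of the 22 libraries, colour for treatment, shape for morph and open symbols for the new batch. The new-batch surface controls have the highest stroma sums, 731 and 759 CPM, and the old-batch starved surface fish the lowest LRP1 levels, 7.92 and 8.37 CPM, at mid-range stroma sums. Most of the counts in the sums are from the gene fn1a.

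LRP1B (ENSAMXG00000040119), a close relative of LRP1, was higher in Pachón ovaries with and without starvation. Starved Pachón had 4.11, 7.14, 5.22 and 3.53 CPM in the old batch and 4.22 and 2.9 CPM in the new. Starved surface fish had 0.864 and 1.1 CPM in the old batch and 0.161 and 1.72 CPM in the new. Every starved Pachón library lay above every starved surface library. Control Pachón had 2.95, 4.49, 4.11 and 4.28 CPM in the old batch and 1.43 and 3.48 CPM in the new, against 0.523, 0.152, 0.382 and 0.341 CPM and 1.02 and 0.81 CPM in control surface fish. The control groups did not overlap either.

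LRP1B (ENSAMXG00000040119) passed the filter on low counts only through Pachón libraries, where it is high. Its gaps between morphs are therefore given as a description. Pachón exceeded surface fish in this row by 2.43 ± 0.44 among controls (log2, interval 1.51 to 3.34, 5.37-fold, adjusted p = 0.000313). Among starved fish the gap was 2.16 ± 0.45 (interval 1.21 to 3.10, 4.46-fold, adjusted p = 0.00113). Over the 22 fits without 1 library the control gap ran from 2.05 to 2.68. The starved gap ran from 1.68 to 3.33, the highest without the second new-batch starved surface library. These fits kept the row through the same Pachón group, so they give no separate support for the gaps. Within the old batch the gap was 3.45 ± 0.54 in controls (adjusted p = 9.82e-05) and 2.33 ± 0.60 in starved fish (adjusted p = 0.00766). Within the new batch it was 1.40 ± 0.68 in controls (adjusted p = 0.178) and 1.99 ± 0.68 in starved fish (adjusted p = 0.0521), the same direction without a call. The new-batch starved gap was called with DESeq2 (2.05, adjusted p = 0.0325). It was also called with limma on scaled CPM at pseudocounts of 1 (1.34, adjusted p = 0.0205) and 0.25 (2.06, adjusted p = 0.02). The row met the count rule, and the filter used for DESeq2, only through Pachón libraries, so these calls give no separate support. The new-batch starved gap was 4.32 without the second new-batch starved surface library and 1.05 without the first. The old-batch starved call was lost without the first old-batch starved surface library (2.16, adjusted p = 0.087) or the second (2.51, adjusted p = 0.0508). Starvation gave 0.71 ± 0.50 in surface fish and 0.44 ± 0.37 in Pachón, neither called. These levels rest on few reads. The old-batch surface controls, part of the gap of 3.45, held 8 counts in all over 4 libraries. The starved surface libraries of the new batch held 9 counts in all, with 1 library at 0.161 CPM.

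The second LRP1B row (ENSAMXG00000002960) was highest in old-batch surface fish. Starved surface fish of the old batch had 7.2 and 13.4 CPM, against 4.01, 10.2, 0.572 and 1.19 CPM in their controls. The remaining 16 libraries, of both morphs, lay between 0.508 and 1.35 CPM. Control surface fish of the old batch therefore split into a pair of libraries above 4 CPM and a pair inside the range of the other groups. The row passed the filter on low counts only through old-batch surface libraries, where it is high. Its changes between morphs and between batches are therefore given as a description. Within the old batch Pachón was lower than surface fish by a log2 change of -3.46 ± 0.69 among starved fish (adjusted p = 0.00126). Among old-batch controls the change was -2 ± 0.64 (adjusted p = 0.0227), which became -0.95 (adjusted p = 0.221) without the second old-batch surface control. That call was also lost without the first old-batch Pachón control (-1.83, adjusted p = 0.0647) or the second (-2, adjusted p = 0.0502). Within the new batch the gap was 0.20 ± 1.02 in starved fish (adjusted p = 0.922) and 0.74 ± 1.01 in controls (adjusted p = 0.67). Over both batches the changes were -1.63 ± 0.64 in starved fish (adjusted p = 0.0539) and -0.63 ± 0.61 in controls, and neither was called. The starved change over both batches was called with DESeq2 (-1.63, adjusted p = 0.045) and with its own groups alone (-1.63, adjusted p = 0.0181). Old over new in surface controls was 2.58 ± 0.86 (adjusted p = 0.0777). This batch change was called with DESeq2 (2.59, adjusted p = 0.048). It was also called without the old-batch surface control numbered 3 (2.93, adjusted p = 0.0222) or 4 (2.88, adjusted p = 0.0428). All these fits kept the row through the old-batch surface libraries where it is high, so their calls give no separate support.

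Within batches, 5 of the 9 receptor genes were called in old-batch controls, where 30.4% of all genes were called between Pachón and surface fish. In old-batch starved fish 5 of 9 were called, against 28.4% of all genes. Both counts include ldlra and both LRP1B rows, which passed the filter on low counts only through the libraries where they are high. The counts are therefore not read as a result about the family. In the new batch none of the 9 was called in controls or in starved fish, against 14.9% and 16.7% of all genes. New-batch groups hold 2 libraries each. The difference between batches in the morph gap of controls was called for none of the 9, against 1.02% of all genes, while DESeq2 and voom with sample weights each called 2 of the 9.

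LRP8 binds reelin and apolipoprotein E and is known best from neurons. Its first row, lrp8 (ENSAMXG00000011425), was called higher in control Pachón and varied widely there. Starved Pachón had 7.02, 9.99, 7.41 and 26.2 CPM in the old batch and 3.62 and 5.15 CPM in the new, against 2.3 and 4.74 CPM and 1.77 and 2.79 CPM in starved surface fish. Control Pachón had 4.72, 4, 20.3 and 9.12 CPM in the old batch and 6.09 and 6.76 CPM in the new, against 1.05, 3.96, 5.34 and 5.96 CPM and 2.2 and 2.43 CPM in control surface fish. Within each batch starved Pachón lay above starved surface fish, and controls of the morphs overlapped in the old batch but not in the new. The gap was 1.34 ± 0.49 in controls (log2, adjusted p = 0.0416) and 1.40 ± 0.54 in starved fish (adjusted p = 0.0514). The starved gap was called with DESeq2 (1.42, adjusted p = 0.0243), with DESeq2 size factors in edgeR (1.42, adjusted p = 0.049), with its own groups alone (1.41, adjusted p = 0.0494) and in 6 of 22 fits without 1 library. Within batches it was 1.85 ± 0.71 in the old batch (adjusted p = 0.0583) and 0.95 ± 0.84 in the new (adjusted p = 0.481). The old-batch starved gap was called with DESeq2 (1.87, adjusted p = 0.0247). Some fits without 1 library also called it, such as the one without the old-batch Pachón control numbered 3 (1.85, adjusted p = 0.0358). The control call was lost in 8 of 22 fits that left out 1 library, with estimates from 1.00 to 1.47 and a largest adjusted p of 0.125. The libraries whose loss ended it were the first and second old-batch surface controls, the old-batch Pachón controls numbered 3 and 4 and all new-batch controls of both morphs. Within batches the control gap was 1.23 ± 0.55 in the old batch (adjusted p = 0.0979) and 1.46 ± 0.82 in the new (adjusted p = 0.245). Starvation gave -0.13 ± 0.56 in surface fish, which was not called.

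The second row, LRP8 (ENSAMXG00000018839), was near its detection limit in old-batch surface fish. Starved Pachón had 2.57, 4.02, 1.85 and 3.27 CPM in the old batch and 2.86 and 2.9 CPM in the new, against 4.91, 2.16, 2.5 and 2.79 CPM and 1.61 and 2.71 CPM in Pachón controls. Starved surface fish of the old batch had 0 and 0.631 CPM, against 0.698, 0.609, 0.572 and 0.681 CPM in their controls. The 0 came from no read in a library where 3 counts would be 0.432 CPM. Starved surface fish of the new batch had 4.35 and 1.29 CPM, against 4.06 and 3.4 CPM in controls. In the old batch every Pachón library lay above every surface library. New-batch starved fish of the morphs overlapped, and both new-batch control Pachón libraries lay below both surface controls.

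Old over new in surface controls, this LRP8 row changed by -2.50 ± 0.59 (log2, adjusted p = 0.0148). The call was lost without the first new-batch surface control (-2.37, adjusted p = 0.104) or the second (-2.63, adjusted p = 0.0565). In Pachón controls the batch change was 0.51 ± 0.59. The difference of the batch changes, 3.02 ± 0.85, had an adjusted p of 0.0942. It was called with DESeq2 (3.08, adjusted p = 0.0212), with voom sample weights (2.86, adjusted p = 0.0494) and with its own groups alone (3.02, adjusted p = 0.0392). Among starved fish Pachón exceeded surface fish by 1.60 ± 0.50 (adjusted p = 0.0173). That call was lost without the first old-batch starved surface library (1.09, adjusted p = 0.0906) or the second new-batch one (1.31, adjusted p = 0.0538), and without the second old-batch starved surface library the estimate was 3.58. Within batches the starved gap was 3.18 ± 0.75 in the old batch (adjusted p = 0.00422) and 0.01 ± 0.66 in the new (adjusted p = 0.997). The old-batch starved gap was 2.18 (adjusted p = 0.0671) without the first old-batch starved surface library and 7.16 without the second, which leaves the library with no read. Among controls the gap was 2.23 ± 0.53 in the old batch (adjusted p = 0.0036), -0.79 ± 0.66 in the new (adjusted p = 0.456) and 0.72 ± 0.42 over both. Comparisons between morphs and between batches share the surface controls.

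**Figure D3:**
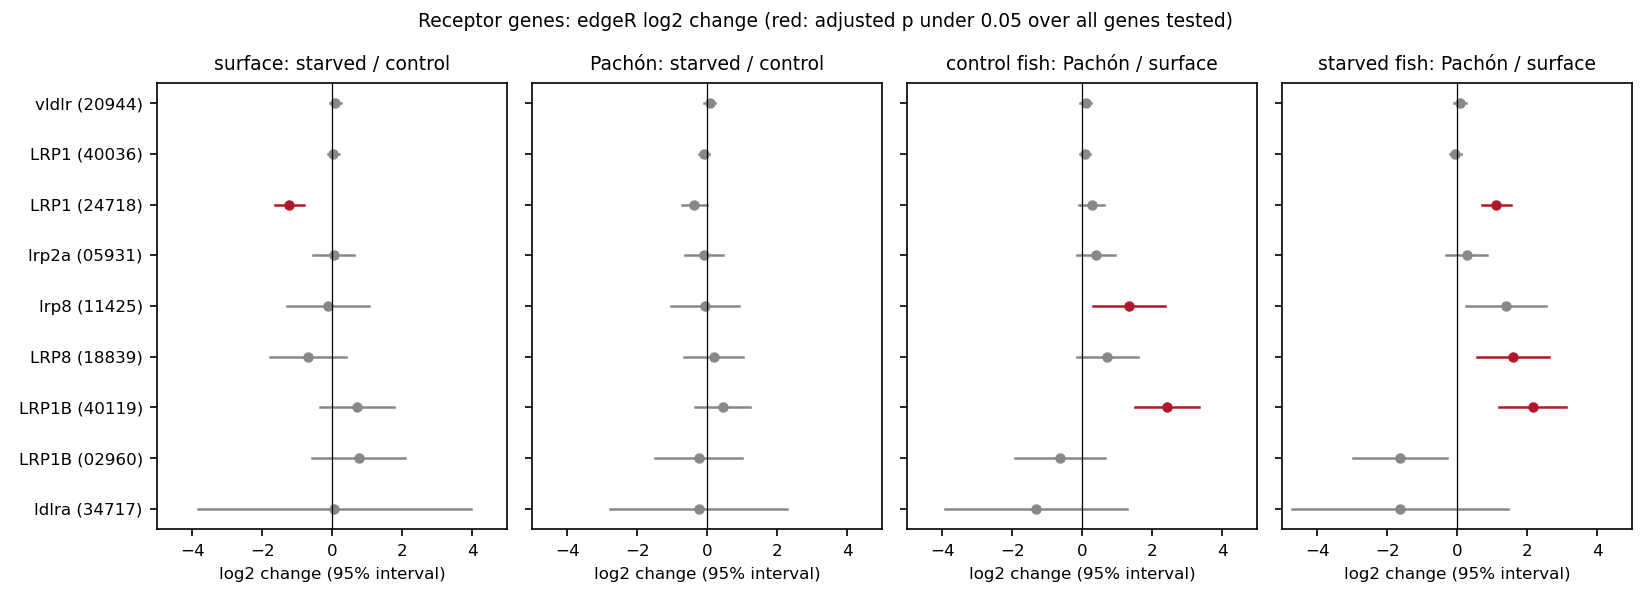
Log2 changes (points) with 95% intervals (bars) of the 9 receptor genes, labelled with the last digits of the gene ID, for starved over control in surface fish and in Pachón and for Pachón over surface in control and in starved fish. Red marks an adjusted p under 0.05, which 1, 0, 2 and 3 genes reach from left to right. Over all tested genes 7.79%, 0%, 34.6% and 36% reach it. Both morph panels count LRP1B (ENSAMXG00000040119), which passed the filter on low counts only through Pachón libraries, where it is high.

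The gene lrp2a (ENSAMXG00000005931), which encodes megalin, differed between libraries without a call in edgeR over all groups. Starved Pachón had 23.1, 21.9, 11.6 and 32.6 CPM in the old batch and 8.44 and 9.5 CPM in the new, against 18.1, 14.8, 22.3 and 22.9 CPM and 9.49 and 14.1 CPM in Pachón controls. Starved surface fish had 10.8 and 12 CPM in the old batch and 9.01 and 15.5 CPM in the new, against 14.1, 9.75, 14.1 and 12.8 CPM and 5.92 and 14.7 CPM in controls. Old-batch Pachón controls all lay above the new-batch ones, with a log2 change of 0.73 ± 0.37 (unadjusted p = 0.0656, adjusted p = 1), a comparison in which none of the 9 receptors and 0.032% of all genes were called. Pachón over surface was 0.40 ± 0.26 in controls (adjusted p = 0.241) and 0.27 ± 0.28 in starved fish (adjusted p = 0.487). The control change was called without the second new-batch surface control (0.81, adjusted p = 0.043). Within the old batch the gap was 0.97 ± 0.37 in starved fish (adjusted p = 0.0566) and 0.62 ± 0.29 in controls (adjusted p = 0.117). The old-batch control gap was called in edgeR with its own groups alone (0.64, adjusted p = 0.0214). The old-batch starved gap was called with DESeq2 (0.99, adjusted p = 0.0312) and voom with sample weights (0.92, adjusted p = 0.0372). It was also called in 5 of 22 fits without 1 library, among them the one without the second new-batch starved surface library (0.99, adjusted p = 0.0403). Within the new batch the lrp2a gap was -0.44 ± 0.43 in starved fish (adjusted p = 0.536) and 0.19 ± 0.43 in controls (adjusted p = 0.813). The new-batch Pachón and all surface groups averaged between 8.97 and 12.7 CPM, and no step between neighbours among them exceeded their pooled SD.

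The LDL receptor gene ldlra (ENSAMXG00000034717) was low in most ovaries and stood out in 2 surface libraries of the old batch. The second old-batch starved surface library had 18.9 CPM from 120 counts, and the second old-batch surface control had 23.1 CPM from 152 counts. The other old-batch starved surface library had 0.72 CPM, and the other 3 old-batch surface controls had 0.349, 0.763 and 0.851 CPM. The other 20 libraries ranged from 0 to 1.44 CPM, and the 0, in the first new-batch starved surface library, allows up to 0.483 CPM. The gene passed the filter on low counts only through the 2 libraries where it is high, so its gaps between morphs are given as a description. Old-batch Pachón minus old-batch surface fish was -3.67 ± 1.25 in starved fish (adjusted p = 0.0354) and -3.62 ± 1.23 in controls (adjusted p = 0.0328). With no filter on low counts the adjusted p was 0.0743 in starved fish and 0.0698 in controls, and with voom sample weights it was 0.17 in starved fish and 0.303 in controls. Without the second old-batch starved surface library the starved gap was 0.05. No control value comes from a fit without the second old-batch surface control, since ldlra then did not pass the filter. Old over new in surface controls gave 3.87 ± 1.66 (adjusted p = 0.174).

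The receptor pathway was followed through 5 lists of genes. None of their surface starvation calls over both batches stood with voom sample weights or with the surface groups fitted alone, where no gene was called. Chaperones, adaptors and regulators of the receptors had 13 tested members, of which 3 fell and none rose in starved surface fish, where 5.37% of all genes fell. These were gipc1 (-0.93 ± 0.21, adjusted p = 0.0136), an adaptor of megalin in mammals, mylipb (-0.95 ± 0.23, adjusted p = 0.0183), a copy of the ubiquitin ligase that marks LDL receptors for degradation, and lmbr1l (-0.26 ± 0.08). In control Pachón 2 were higher and 3 lower than in control surface fish, near the 34.6% of all genes called there. Among them dab1a, an adaptor of the reelin receptors, was lower by a log2 change of -1.25 ± 0.27 (adjusted p = 0.00157). In starved Pachón 1 was higher and 3 lower than in starved surface fish, where 36% of all genes were called, again with dab1a (-1.65 ± 0.28) among those lower.

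Genes of the clathrin coat and of the AP-2 adaptor and endosomes had 24 tested members and none was called in starved surface fish, where 7.79% of all genes were called, with a median change of 0.07. In control Pachón 3 were higher and 6 lower than in control surface fish. The largest call among the genes named by rule was rab11a, a recycling endosome GTPase, at -0.63 ± 0.16, and EPS15, a coat-pit scaffold, was at -0.46 ± 0.11. In starved Pachón 1 was higher and 7 lower. Both counts lie near the shares of all genes called, 34.6% in controls and 36% in starved fish. The lower genes in starved Pachón included picalmb (-2.36 ± 0.59), a clathrin assembly protein, and snx27a (-1.14 ± 0.25), a sorting nexin of the recycling pathway. Of the 712 counts of picalmb over all libraries, 271 came from 1 library. The list's medians, -0.03 in controls and -0.06 in starved fish, were close to those of all genes, -0.01 and 0.

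Ligands were thinly represented, with 12 of 24 rows on the list of yolk and lipoprotein ligands passing the filter. The vitellogenin gene vtg3 had 16 counts over all 22 libraries and was not tested. No ligand gene was called in starved surface fish, against 7.79% of all genes. Between morphs 4 of the 12 were called in controls and 4 in starved fish, near the 34.6% and 36% of all genes. In control Pachón apoa1b, an apolipoprotein of high-density lipoprotein, was higher by 3.42 ± 0.64 (adjusted p = 0.000448), while RELN, the reelin gene (-1.75 ± 0.36), mttp, which loads lipid onto apolipoprotein B (-3.51 ± 0.85), and lpl, lipoprotein lipase (-2.01 ± 0.68), were lower. In starved fish apoa1b (2.19 ± 0.60) and apoa2 (4.42 ± 1.38) were higher in Pachón, and RELN (-1.94 ± 0.39) and mttp (-3.32 ± 0.82) lower. Counts of apoa1b and apoa2 were few and uneven. Over all 22 libraries apoa1b had 570, with 168 in 1 library, and apoa2 had 170, with 70 in 1 library. The apolipoprotein E gene apoeb had more, 9923, with 2061 in 1 library.

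Among 14 other LDL receptor relatives and scavenger receptors 1 fell in starved surface fish, SORL1, a sorting receptor (-0.53 ± 0.11, adjusted p = 0.00688), and none rose. In control Pachón 2 were higher and 3 lower, again near the 34.6% of all genes, with scarb1, the high-density lipoprotein receptor, at -0.63 ± 0.16, lrp12 at -0.42 ± 0.12 and LDLRAD2 at -0.83 ± 0.17. Of 28 genes of the sterol-responsive SREBF2 pathway 1 rose and 4 fell in starved surface fish, against 7.79% of all genes called. The 4 were SCAP, the sterol sensor escort (-0.73 ± 0.14), abca1a, a cholesterol exporter (-1.18 ± 0.24), msmo1 (-1.84 ± 0.44) and hsd17b7 (-1.16 ± 0.33), a pair of cholesterol synthesis enzymes. In control Pachón 2 of the 28 were higher and 9 lower, and in starved Pachón 4 were higher and 7 lower, again close to the 34.6% and 36% of all genes. The cholesterol synthesis gene lss was lower in Pachón, with log2 changes of -2.15 ± 0.29 in controls and -3.18 ± 0.30 in starved fish.

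**Figure D4:**
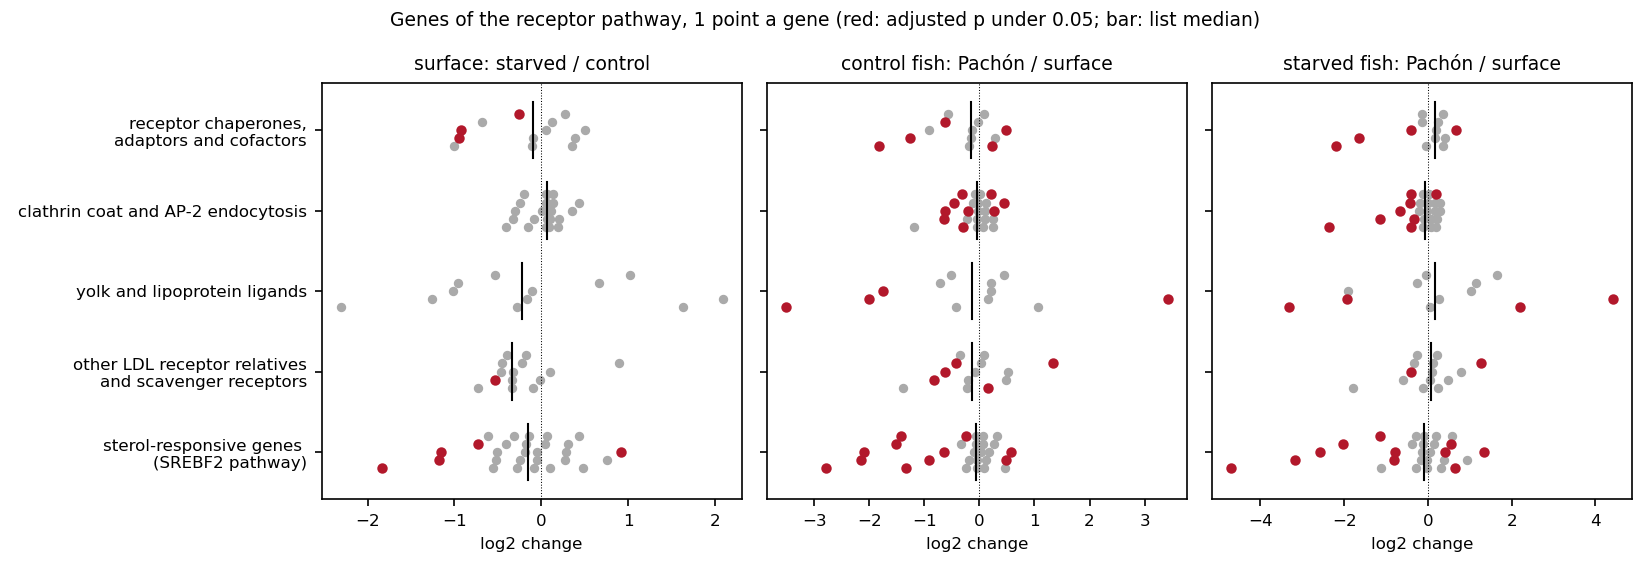
Log2 changes of the tested genes of 5 pathway lists, 1 point a gene, for starved over control in surface fish and Pachón over surface in control and in starved fish. Red marks an adjusted p under 0.05 and black bars the list medians, which lie between -0.33 and 0.16 in every panel.

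For each receptor row with a mean log2 CPM of at least 1, the genes whose log2 CPM followed it most closely over all 22 libraries were listed as a description. These libraries share depth, morph and batch differences. Closest to vldlr were HMGB2, a chromatin protein, ncapd3, a condensin subunit, and rpl27, a ribosomal protein, each with a Pearson correlation of 0.93. The LRP1 row ENSAMXG00000024718 was followed by MPDZ (0.93), pgr, the progesterone receptor gene (0.92), and bnc2 (0.91). LRP1B ENSAMXG00000040119 was followed by MRC1, the mannose receptor gene of macrophages (0.95), slc38a4 (0.94) and tp53bp2b (0.94). Within morphs these LRP1B correlations were 0.91, 0.83 and 0.84 over the surface libraries and 0.62, 0.66 and 0.47 over the Pachón libraries. Closest to LRP8 were ARHGEF28 (0.90), DOCK4 (0.88) and lgmn (0.87), which reached 0.16, 0.32 and -0.22 over the 12 Pachón libraries alone. The steady LRP1 row ENSAMXG00000040036 reached at most 0.65, with aif1l, lrp8 reached 0.83 with bcl6aa, and lrp2a reached 0.71 with nr4a2a. Over the surface libraries alone these were 0.3, 0.44 and 0.41, and over the Pachón libraries 0.74, 0.81 and 0.79.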

How the data were processed

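All main tests used the counts that the authors deposited for each gene in each library. They also deposited a second table of scaled CPM values, treated here as a signal and used in 2 alternatives. Per the submitters' processing notes STAR 2.7.10b and RSEM were used, without a stated role. A genome build, an annotation and a strand setting for counting are not given in the sources, so overlapping and antisense genes could not be told apart and no coordinates or sequences are printed. Per the labels' protocols, libraries were made with a directional kit after ribosomal RNA depletion. In each library 55.4% to 67.6% of listed reads were counted in genes, and 4 rows naming no gene were left out. Symbols came from the deposited tables (16752 of 27420 genes).

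One edgeR 4.0.16 quasi-likelihood model (R 4.3.3, TMM, robust) with 8 group means over all 22 libraries was fitted after filterByExpr (minimum count 10, minimum total 15). Tests were 2-sided, with Benjamini-Hochberg adjustment over 15607 genes and a threshold of 0.05. Comparisons over both batches weight them equally, and morph contrasts within batches, added after the data were seen, come from the same fit. On simulated counts for the surface starvation comparison with 15099 genes, 32% of genes changed 1.5-fold, 60.4% at 2-fold, 87.8% at 4-fold and 96% at 8-fold were recovered. Of 140 calls 4 were false. The simulated counts were drawn around 1 mean per gene, without morph or batch differences or a deviating library. The simulated shares are therefore no estimate of false calls in the real comparison. Alternatives used DESeq2 1.42.0, limma 3.58.1 (voom weights, and scaled CPM with pseudocounts of 1 and 0.25), other filters and sets of libraries, and a replicate block. Of each list, up to 4 genes with the smallest p in a comparison could be named, some of which are not reported here, and of each receptor the 3 most correlated genes. Floors of 3 counts cover counting error only. The receptors and the lists were chosen with earlier results of these data known, so their counts are descriptions.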

Additional observations from a re-analysis of the deposited data

Results flagged for a closer look

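Of 27 sets of 4 libraries examined (1 receptor gene in 1 group), 2 held a library far from the other 3. Chance alone flags about 1 in 20 such sets. In starved Pachón of the old batch, lrp8 (ENSAMXG00000011425) had 26.2 CPM in the library numbered 4, where the nearest other library had 9.99 CPM. In control surface fish of the old batch, ldlra (ENSAMXG00000034717) had 23.1 CPM in the second library, where the nearest other had 0.851 CPM.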

How the results depend on the processing

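Counts of receptor genes called moved most for Pachón over surface. In control fish (2 called) 1 was called with no filter on low counts, 1 with voom weights and 1 without both old-batch surface libraries numbered 2, an alternative chosen after seeing the data. Leaving out 1 library gave 1 to 3. In starved fish (3) DESeq2 called 5. In old-batch controls (5) voom weights, both pseudocounts on scaled CPM and the loss of both libraries numbered 2 gave 3 each, and leaving out 1 library gave 3 to 5. In old-batch starved fish (5) leaving out 1 library gave 3 to 6. In new-batch starved fish (0) DESeq2 and both pseudocounts gave 1, and leaving out 1 library 0 to 1. The surface starvation call (1) became 0 with voom weights and with its own groups alone, and leaving out 1 library gave 1 to 2. In the new batch (1) the same alternatives gave 0, and leaving out 1 library 0 to 1. Old over new in surface controls (2) ranged from 1 to 3 without 1 library. The morph difference of the batch change (0) was 2 with DESeq2, 2 with voom weights and 1 with its own groups alone, and 0 to 1 without 1 library. The cause of these shifts was not tested. Over all genes, the surface starvation calls (1216) became 0 with voom weights, 0 with the surface groups alone, 493 with the replicate block, 685 without both libraries numbered 2 and 420 (without the second new-batch starved surface library) to 4342 (without the first) when 1 library was left out. Those in the new batch (652) became 3, 0 and 311 under the first 3 of these, 1116 with DESeq2, 172 without the second new-batch surface control and 3614 without the first new-batch starved surface library. Across the alternatives that kept all or all but the numbered-2 libraries, the old-batch ones (23) ranged from 0 to 301. Old over new in surface controls (1148) ranged from 238 with the block to 1811 with voom weights (405 to 1742 without 1 library), and the morph difference of that change (159) from 95 to 449 (64 to 301 without 1 library). Pachón over surface in starved fish (5617) fell to 3527 with voom weights, and in the new batch (2610) to 463 with its own groups alone (1257 to 3705 without 1 library). Without 1 library, Pachón over surface ran from 1171 to 3085 in new-batch controls (2330) and from 2206 to 5189 in old-batch starved fish (4426). The morph difference of the starvation response (4) ranged from 0 to 107 and reached 798 without 1 library. DESeq2's size factors turned no call in any list.

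Libraries with the same replicate number did not deviate together (correlations from -0.19 to 0.11, and only 1 starved library correlated best with its own number), and no label ties the numbers to shared fish, so the numbers were not taken as pairs. With the replicate block 1 receptor gene was called for old over new in surface controls, where LRP8 lost its call (-2.61, adjusted p = 0.124). In old-batch starved fish the ldlra gap lost its call (-2.14, adjusted p = 0.221). In old-batch controls the LRP1B (ENSAMXG00000002960) and ldlra gaps lost theirs (-1.62, adjusted p = 0.0639, and -2.39, adjusted p = 0.112), and lrp8 gained one (1.21, adjusted p = 0.0454). The surface starvation change of lrp8 became 0.25 and the Pachón batch change of LRP1 (ENSAMXG00000024718) 0.04.

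Over the 9 genes and 12 comparisons (108 results), none of the 9 called results changed sign in any fit, while uncalled ones did so in 87 fits without 1 library and in 14 others, and none of those was called. The full list of alternatives was kept for the 68 gene results that the text draws on, within-batch ones included, a choice made after these counts were seen. Those that changed sign without 1 library ranged as follows. Surface starvation changes ran from -0.43 to 0.09 for lrp8, -0.02 to 0.20 for vldlr, 0 to 0.07 for LRP1 (ENSAMXG00000040036) and -0.44 to 1.18 for LRP1B (ENSAMXG00000040119). For vldlr the morph difference ran from -0.13 to 0.10 and the starved morph gap from -0.03 to 0.21. For LRP1 (ENSAMXG00000024718) the Pachón batch change ran from -0.62 to 0.16 and the new-batch control morph gap from -0.83 to 0.10. In old-batch starved fish the ldlra gap ran from -4.62 to 0.05, and in new-batch starved fish the LRP8 gap from -0.57 to 1.15. The new-batch lrp2a gap ran from -0.78 to 0.01 in starved fish and from -0.32 to 0.99 in controls. Groups of 2 libraries and levels near 3 counts limit LRP8, ldlra and both LRP1B rows.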

Other observations

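Chosen after its values were seen, the ldlra pattern was set beside all tested genes. Only 3 genes had both old-batch surface libraries numbered 2 at least 4-fold above all other 20 libraries. These were ldlra, GRIN2C and ENSAMXG00000013882, which has no symbol. GRIN2C, a glutamate receptor subunit gene, had 30.3 CPM in the starved library and 26 CPM in the control library, and at most 1.05 CPM elsewhere. Genes near ldlra in RefSeq's AstMex3_surface assembly were looked up only where their symbol matched a single tested row of the count table. Neighbours that are untested or named differently there were not seen. The closest matched genes on each side did not share the ldlra pattern. On one side smarca4a had 659 and 585 CPM in those libraries and 533 to 699 CPM in the others. On the other side kri1 had 60.5 and 76.6 CPM, and 42.5 to 88.5 CPM in the others. RefSeq lists ldlrb, lrp13 and the symbols lrp1aa, lrp1ab, lrp1ba and lrp1bb for this species, and no row of the count table has these symbols.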
